A study of Rattus norvegicus with 6 samples.

Results

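The genes described here take up glutamine in the proximal tubule, form ammonia from it, move bicarbonate and protons, and secrete ammonia into the urine. The 9 members (Slc38a3, Slc7a7, Glud1, Glul, Pck1, Slc9a3, Slc4a4, Rhbg and Rhcg) were found on the array by matching each probe's accession to RefSeq, which gave 17 probes, all of them well above background on all 6 arrays. They are 9 of 12201 named genes tested. The list was chosen by the higher level of Slc38a3 after treatment, so the difference of Slc38a3 is given as a description with no test. The other 8 members were taken for their function.

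The kidney cortex of 6 male rats of the outbred Sprague-Dawley strain (Crl:CD(SD)), bought at 5 weeks of age, was profiled with 1 array for each rat. The vehicle group was 3 rats given corn oil for 4 weeks. The treated group was 3 rats given p-nitroanisole, a nitrobenzene with a methoxy group, at 500 mg/kg per day for 4 weeks. The sources used here give no blood pH, urinary ammonium or route of dosing.

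The proximal tubule takes glutamine from blood, deaminates it to glutamate and 2-oxoglutarate, and releases ammonium into the lumen and new bicarbonate into blood. In rats with metabolic acidosis this pathway is known to be turned up as a set: the glutamine carrier SNAT3 (Slc38a3), glutamate dehydrogenase (Glud1) and the cytosolic phosphoenolpyruvate carboxykinase (Pck1) rise, while glutamine synthetase (Glul), which consumes ammonia, falls. The ammonia is finally secreted in the collecting duct through the Rhesus glycoproteins Rhbg and Rhcg. The comparison asks whether the level of Slc38a3 moved together with these partners.

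Levels are given as multiples of each array's 75th percentile of processed intensity (877 to 1022 intensity units), a scale on which probes of different genes cannot be set against each other. Each array had 61537 probes, with 66.4% to 69.2% of them above background by the scanner software's test and none saturated. Treated replicate 3 was the 1 array on a second slide. Differences are log2 treated minus vehicle from limma, with n = 3 per group, and p-values are adjusted by Benjamini-Hochberg over all 32203 rows tested. In the cortex as a whole, RNA per cell and the number of cells of a type cannot be told apart. The cortex markers Slc34a1 (308.7 to 343.3 over the 6 arrays) and Lrp2 (76.9 to 91.5) of the proximal tubule were present on all arrays at like levels. Slc22a6, another of the 6 convoluted-part markers, read 275.3 to 278.0 in vehicle rats and 300.1 to 322.6 in treated rats. Its log2 difference was 0.18 (limma adjusted p = 0.317). Of the 6, 5 were higher on average and 1 lower (3 higher with quantile normalization).

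Slc38a3, the basolateral carrier that moves glutamine together with sodium in exchange for protons, had levels of 0.493, 0.667 and 0.633 in the vehicle rats. In the treated rats they were 1.66, 2.29 and 1.53. The lowest treated rat was above the highest vehicle rat, and the group means were 0.598 ± 0.0926 and 1.82 ± 0.406 (SD, n = 3). The treated level was 3.03 times the vehicle level (log2 difference 1.60, SE 0.19), the 31st largest difference among named genes and the 99.8th percentile of all rows. In all, 247 of 32203 rows (0.767%) were higher by at least 1 on the log2 scale. On slide 1 alone, with 3 vehicle and 2 treated rats, the log2 difference was 1.72. Slc38a3 had 1 probe, so no second probe bears on it.

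**Figure D1:**
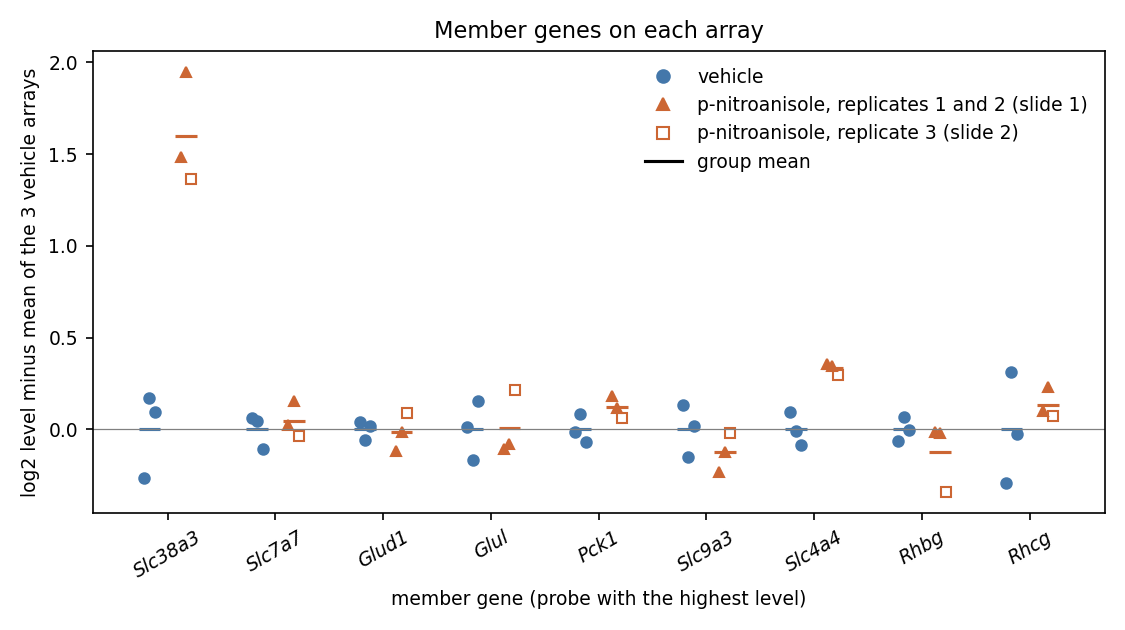
Level of each member gene on each array as its log2 level minus the mean of the 3 vehicle arrays (y axis), with circles for vehicle, triangles for treated replicates 1 and 2, an open square for treated replicate 3 on the second slide, and bars for group means. The treated arrays stand clear of the vehicle arrays for Slc38a3 (mean 1.60) and, at a smaller distance, for Slc4a4 (mean 0.33), and the groups overlap for the other 7 genes.

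None of the other 8 members passed the test (limma, Benjamini-Hochberg adjusted p from 0.174 to 0.979), and 1 of them, Slc4a4, was under an unadjusted p of 0.05. Over all rows, 24 of 32203 were called (0.0745%, of which 0.0497% higher and 0.0248% lower with treatment) and 4330 had an unadjusted p under 0.05 (13.4%). The groups did not overlap in 1 of the 8, again Slc4a4, against 22.2% of all rows (11.9% higher and 10.3% lower). Of the 8, 5 had a higher mean with treatment, against 52.4% of all rows on the same scaling, and 3 of the 8 with quantile normalization or median scaling. The differences of the 7 others lay between -0.12 and 0.14, and each gene's own 95% interval, given with its values, included 0.

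Slc7a7 encodes the light chain of the basolateral exchanger that releases cationic amino acids in return for neutral ones such as glutamine. Its levels were 6.14, 6.09 and 5.46 in vehicle rats and 5.98, 6.55 and 5.75 in treated rats, with the groups interleaved. The log2 difference was 0.05 (95% interval -0.16 to 0.26, limma adjusted p = 0.830).

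Glud1, the mitochondrial glutamate dehydrogenase that frees the second ammonium of glutamine, had levels of 101.9, 95.2 and 100.4 in vehicle rats and 91.4, 98.3 and 105.4 in treated rats. Its log2 difference was -0.01 (95% interval -0.21 to 0.18, limma adjusted p = 0.952). The treated rats spread over a wider range than the vehicle rats and enclosed it. The other Glud1 probes gave 0.01 and -0.03, each with an SE of 0.07.

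Glul, glutamine synthetase, had levels of 18.5, 16.3 and 20.4 in vehicle rats and 17.0, 17.4 and 21.3 in treated rats. The log2 difference was 0.01 (95% interval -0.30 to 0.32, limma adjusted p = 0.979), with the groups interleaved. The second Glul probe gave -0.13 (SE 0.08).

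Pck1 takes the carbon skeleton of glutamine towards glucose. Its levels were 238.8, 255.4 and 230.0 in vehicle rats and 274.0, 261.6 and 252.0 in treated rats, so the lowest treated rat fell inside the vehicle range. The log2 difference was 0.12 (95% interval -0.06 to 0.30, limma adjusted p = 0.515). The second probe gave 0.14 (SE 0.08), and there the groups did not overlap, at 152.3 to 164.7 in vehicle rats against 166.3 to 188.7 in treated rats. Under quantile normalization the first probe's difference was -0.05.

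The window before the Pck1 start is shown because it is a well-studied promoter that answers to cyclic AMP and acid, while its transcript is here measured beside that of Slc38a3. The bases come from RefSeq's gene models on GRCr8, chr3:182348322-182348571 on the plus strand, and end at the base before the start. Capitals mark TTACGTCA, the cyclic AMP response element, which begins 93 bases before the start.
Pck1: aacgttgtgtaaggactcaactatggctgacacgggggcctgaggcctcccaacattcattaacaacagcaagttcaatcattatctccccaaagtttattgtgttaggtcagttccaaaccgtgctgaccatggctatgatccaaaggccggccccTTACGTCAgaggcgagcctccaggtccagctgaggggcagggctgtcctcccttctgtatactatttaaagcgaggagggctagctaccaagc

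The letters TTACGTCA, read on both strands, occur in 0.75% of 33469 windows of 250 bases before RefSeq starts. They overlap the shorter core TGACG on the other strand, which 18.2% of the windows hold. Of the 8 members with an entry, only Pck1 had either of them, and none had TGACGTCA (1.59% of windows). The antioxidant response element TGACNNNGC, in 10.1% of windows, was found among the members only before Slc7a7. These are matches of letters, not measured binding.

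Slc9a3, the apical sodium-proton exchanger NHE3 that secretes most of the proximal acid, had levels of 1.33, 1.09 and 1.23 in vehicle rats and 1.03, 1.11 and 1.19 in treated rats on its brightest probe. The log2 difference was -0.12 (95% interval -0.37 to 0.13, limma adjusted p = 0.624), from -0.06 without vehicle replicate 1 to -0.20 without vehicle replicate 2. Its other probes disagreed in sign, at 0.24 with a wide error (SE 0.47) and -0.08 (SE 0.09). On the probe at 0.24, treated replicate 3 read 0.529, while the other 5 arrays read 0.150 to 0.228, and within slide 1 the difference was -0.31. All 3 probes were lower with treatment within slide 1.

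Slc4a4, the sodium-bicarbonate cotransporter NBCe1 that returns bicarbonate to blood, had levels of 45.5, 42.4 and 40.3 in vehicle rats and 54.6, 54.3 and 52.3 in treated rats. Every treated rat lay above every vehicle rat, and the treated rats were close together (53.7 ± 1.22, SD, n = 3, against 42.7 ± 2.65). The ratio of the groups was 1.26 (log2 difference 0.33, SE 0.07, 95% interval 0.16 to 0.51), and with a limma adjusted p of 0.174 it did not pass the threshold. The second probe gave 0.43 (SE 0.07), with vehicle rats at 25.9 to 29.0 and treated rats at 36.9 to 37.8. The third gave 0.22 (SE 0.10), with treated replicate 3 at 18.6, inside the vehicle range of 17.4 to 18.8. All 3 probes read higher on average with treatment, and without treated replicate 3 the differences were 0.35, 0.43 and 0.31.

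**Figure D2:**
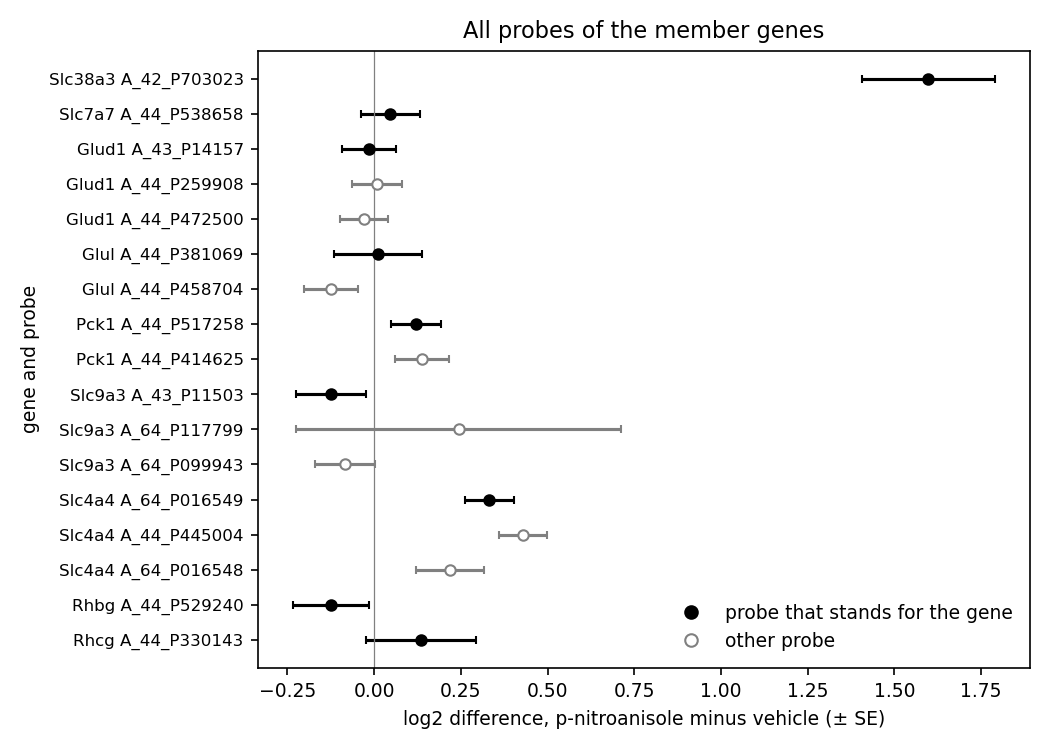
Log2 difference between p-nitroanisole and vehicle (x axis, ± SE, n = 3 per group) for each of the 17 probes of the member genes, filled for the probe that stands for its gene and open for the others. The 3 Slc4a4 probes lie at 0.22 to 0.43, the Slc38a3 probe lies at 1.60, and the Slc9a3 probe with the wide error lies at 0.24.

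Rhbg, the basolateral ammonia channel of the distal nephron and collecting duct, had levels of 8.51, 9.31 and 8.87 in vehicle rats. The treated rats read 8.82, 8.77 and 7.02. Treated replicate 3 was the lowest and the other treated rats lay within the vehicle range. The log2 difference was -0.12 (95% interval -0.39 to 0.15, limma adjusted p = 0.648), and -0.02 without treated replicate 3. Rhcg, the apical partner, had levels of 6.50, 9.90 and 7.83 in vehicle rats and 8.53, 9.36 and 8.37 in treated rats, all inside the vehicle range. Its log2 difference was 0.14 (95% interval -0.26 to 0.53, limma adjusted p = 0.737), and -0.01 without vehicle replicate 1, the lowest array.

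Markers of the collecting duct cells that hold Rhbg and Rhcg were read beside them. Of 7 intercalated cell markers 6 were tested, 4 of them lower with treatment, with a median difference of -0.08. None of the 6 was called (limma), and 1 was under an unadjusted p of 0.05. That 1 marker was higher with treatment, and it was the only 1 of the 6 whose groups did not overlap. The median was -0.03, with 3 of 6 lower, with the slide as a block, which is the same fit as leaving out treated replicate 3. It was about -0.14, with 5 of 6 lower, with quantile normalization or median scaling. Their summed level was 191.2 to 206.8 in vehicle rats and 164.5 to 199.1 in treated rats, lowest in treated replicate 3, the rat with the lowest Rhbg. Such a sum mainly follows the brightest probes. All 5 principal cell markers were lower (median -0.29), and none of them passed the test (2 under an unadjusted p of 0.05, limma). Their summed level was 152.7 to 179.8 in vehicle rats and 134.7 to 151.3 in treated rats, most of it from Aqp2. Aqp2 alone read 98.0 to 117.2 in vehicle rats and 88.4 to 104.6 in treated rats, with the groups overlapping. The part of these shifts in Rhbg and Rhcg was not tested.

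A close relative of Slc38a3 had the largest difference among the other pathway genes. Slc38a5 (SNAT5), which also carries glutamine with sodium in exchange for protons and is known in erythroid cells too, belongs to a list of 11 other carriers of glutamine and amino acids, 10 of which were tested. Its levels were 0.146, 0.106 and 0.104 in vehicle rats and 0.306, 0.373 and 0.335 in treated rats. The groups stood apart, with a ratio of 2.87 (log2 difference 1.52, SE 0.16, 95% interval 1.13 to 1.91), the 99.8th percentile of all rows. The limma adjusted p was 0.0622, so it missed the threshold of 0.05. With a trended robust variance it was 0.0186, and with the normexp background correction it was 0.0135 at a log2 difference of 1.13. In the 14 other alternatives it ran from 0.0517 to 0.295. The second Slc38a5 probe was well above background on the 3 treated arrays and on no vehicle array, at 0.0284 to 0.0346 against 0.00522 to 0.0168.

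The window before Slc38a5 is shown as the counterpart to that of Pck1, because this gene stood out among the other pathway genes and RefSeq's table used here has no entry for Slc38a3. It is chrX:16894471-16894720 of GRCr8, on the minus strand, ending at the base before the start. Capitals mark the core TGACG, found once on each strand.
Slc38a5: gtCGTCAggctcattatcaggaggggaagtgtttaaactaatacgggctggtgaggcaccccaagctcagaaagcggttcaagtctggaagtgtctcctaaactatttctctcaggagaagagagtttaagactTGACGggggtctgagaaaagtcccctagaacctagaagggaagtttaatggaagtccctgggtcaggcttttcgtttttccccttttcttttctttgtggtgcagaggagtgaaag

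The levels of red cell precursor and straight tubule markers were read beside both SNAT genes. All 6 red cell precursor markers were higher with treatment (median difference 1.95). Their summed level was 332.3 to 412.3 in vehicle rats and 842.5 to 990.7 in treated rats, most of it from the globin genes. Of the 6, 3 were called higher (limma), against 0.0497% of all rows. Alas2, the heme synthesis enzyme of these cells and 1 of the 3, read 1.14 to 1.50 in vehicle rats and 4.40 to 5.60 in treated rats (log2 difference 1.91, limma adjusted p = 0.0404). The part of red cell precursors in either SNAT gene was not tested.

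Slc38a3 is known to lie mainly in the straight part of the proximal tubule in rats with normal acid-base state, as does Glul. The 5 straight-part markers were all higher on average, by 0.09 for Cyp7b1 to 0.84 (SE 0.62) for Slc22a7. Their median difference was 0.26, and 0.17 with quantile normalization, with none called and 1 under an unadjusted p of 0.05 in limma. Their summed level, 255.5 to 290.0 in vehicle rats and 308.3 to 347.4 in treated rats, mainly followed 1 bright probe. This was Acy3, at 245.3 to 285.5 in vehicle rats and 298 to 330.3 in treated rats. The defining transporter Slc7a13 varied widely among the vehicle rats, at 3.56, 9.30 and 28.4, and the treated rats read 11.0, 16.0 and 9.27, inside that range. The 6 convoluted-part markers had a median difference of 0.07 (-0.01 with quantile normalization), with none called and 1 higher under an unadjusted p of 0.05 in limma. None of the thick limb, podocyte, T cell or macrophage markers was called (limma, 1 higher and 1 lower under an unadjusted p of 0.05). The part of the straight tubule in the difference of Slc38a3 was not tested.

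**Figure D3:**
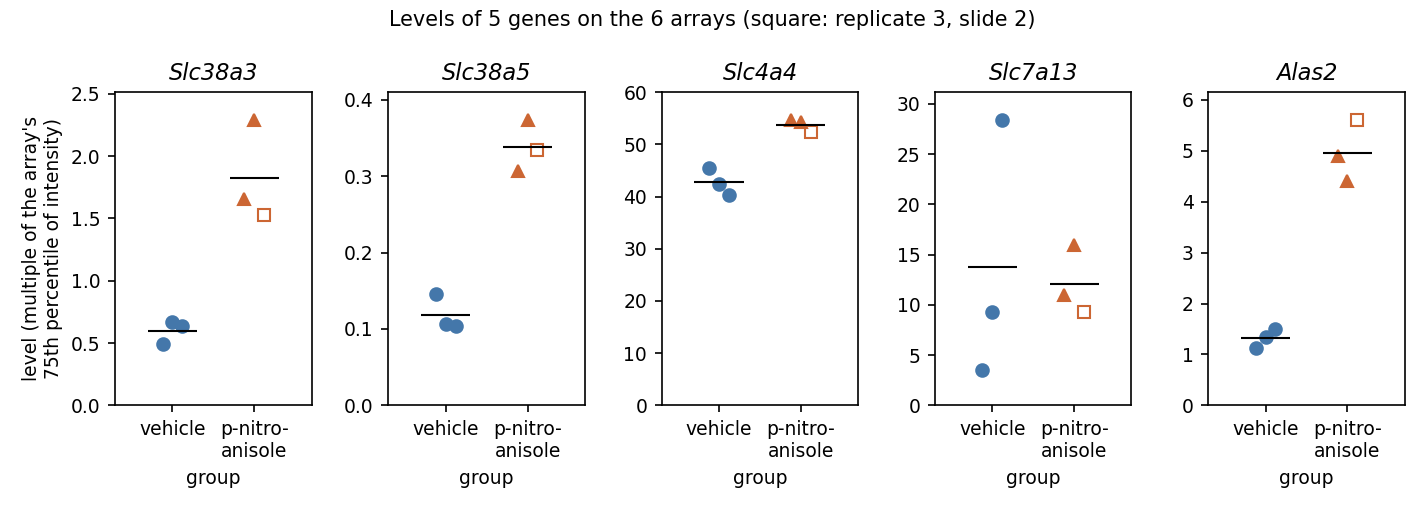
Level on each array (y axis, multiple of the array's 75th percentile of intensity, starting at 0) of Slc38a3, Slc38a5, Slc4a4, the straight tubule marker Slc7a13 and the red cell precursor marker Alas2, with circles for vehicle, triangles for treated replicates 1 and 2, squares for treated replicate 3, and bars for group means. The groups are separate for the first 3 genes and Alas2, and the treated rats lie within the vehicle range of 3.56 to 28.4 for Slc7a13.

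The other genes of the pathway were taken from 6 lists with 81 genes, of which 77 were on the array and 73 were tested. None was called (limma), and 11 had an unadjusted p under 0.05, 8 higher and 3 lower, against 13.4% of all rows. In 22 of the 73 (30.1%) the groups did not overlap, 17 higher and 5 lower, against 22.2% of all rows (11.9% higher and 10.3% lower). Their median difference was 0.05, that of all rows 0.01, and 71 of the 73 lay within 0.5 of 0 on the log2 scale. The 2 beyond it were Slc38a5 and Edn1. By direction 51 of the 73 were higher, and with quantile normalization 44 and with median scaling 36, so this count depends on the scaling.

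Among the other glutamine and amino acid carriers 7 of 10 tested were higher (5 with median scaling), with a median difference of 0.09 and 0 called (limma, 3 under an unadjusted p of 0.05). Slc38a1, a sodium-coupled glutamine carrier, ran the other way from Slc38a5, at 0.0462, 0.0473 and 0.0567 in vehicle rats and 0.0342, 0.0446 and 0.0360 in treated rats. Its log2 difference was -0.39 (SE 0.14, limma adjusted p = 0.316), and -0.06 with the normexp background correction. Slc6a19, the apical carrier that reabsorbs filtered glutamine and other neutral amino acids, was singled out after its values were seen. It read 11.9, 11.5 and 9.78 in vehicle rats and 15.2, 14.4 and 12.7 in treated rats, with no overlap (log2 difference 0.35, SE 0.11, limma adjusted p = 0.287).

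Ammonia formation and the path of glutamine carbon had 17 tested genes besides the members. Of these 15 were higher (14 with quantile normalization and 12 with median scaling), with a median difference of 0.13 and 0 called (limma, 4 under an unadjusted p of 0.05, 3 higher and 1 lower). Gls2, the liver-type glutaminase, read 0.980, 1.33 and 0.991 in vehicle rats and 1.47, 1.40 and 1.40 in treated rats, a log2 difference of 0.39 (SE 0.13, limma adjusted p = 0.316). Slc25a10, the mitochondrial dicarboxylate carrier, differed by 0.24 (SE 0.11, limma adjusted p = 0.416), with the groups overlapping.

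Among 24 tested genes of proton and bicarbonate transport 14 were higher and 10 lower (9 higher with median scaling and 10 with quantile normalization), with a median difference of 0.01 and 0 called (limma, 3 under an unadjusted p of 0.05). Slc4a8, a sodium-driven chloride-bicarbonate exchanger, read 0.245, 0.288 and 0.247 in vehicle rats and 0.199, 0.213 and 0.192 in treated rats. Its log2 difference was -0.37 (SE 0.09, limma adjusted p = 0.212), and its second probe gave -0.33 (SE 0.15). Atp12a, the nongastric proton-potassium pump, differed by 0.32 with overlapping groups (SE 0.22, limma adjusted p = 0.554), from 0.14 without vehicle replicate 1 to 0.53 without vehicle replicate 2.

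Of 6 tested genes for other ammonium and ammonia carriers 4 were higher (3 with median scaling), and none was called (limma, 0 under an unadjusted p of 0.05). Aqp8, a water channel that also lets ammonia through, differed by 0.27 (SE 0.15) and Hcn2, a cation channel, by 0.22 (SE 0.18), both with overlapping groups. Without treated replicate 2 Aqp8 was at 0.14 and Hcn2 at 0.345, and without vehicle replicate 3 Hcn2 was at 0.06. A second Aqp8 probe, well above background on 2 arrays and so not tested, gave -0.65. Rhag, the red cell Rhesus glycoprotein, was not well above background on all 3 arrays of either group.

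Acid sensing and regulation had 12 tested genes, 7 higher and 5 lower (5 higher with median scaling), with a median difference of 0.03 and 0 called (limma, 1 under an unadjusted p of 0.05). Nr1h4, the bile acid receptor FXR, read 31.9, 30.4 and 27.6 in vehicle rats and 42.9, 40.6 and 40.9 in treated rats, with no overlap. Its log2 difference was 0.47 (SE 0.08, limma adjusted p = 0.128, and 0.0357 with a trended robust variance), and its other probes gave 0.65 (SE 0.14) and 0.54 (SE 0.09). Edn1, endothelin 1, which promotes acid secretion, differed by 0.50 (SE 0.21, limma adjusted p = 0.372) at low levels of 0.0313 to 0.0411 in vehicle rats and 0.0386 to 0.0630 in treated rats, and by 0.26 with the normexp background correction.

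The 4 tested genes of citrate handling were all higher by 0.02 to 0.18 (2 of 4 with median scaling), with 0 called (limma, 0 under an unadjusted p of 0.05). Acly, which splits cytosolic citrate, differed by 0.18 (SE 0.13) and was at 16.2 and 16.3 in treated replicates 1 and 2 but at 12.3 in treated replicate 3, below the vehicle range of 12.6 to 13.8. Its difference was 0.31 without treated replicate 3, and 0.11 without either of the other treated arrays.

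**Figure D4:**
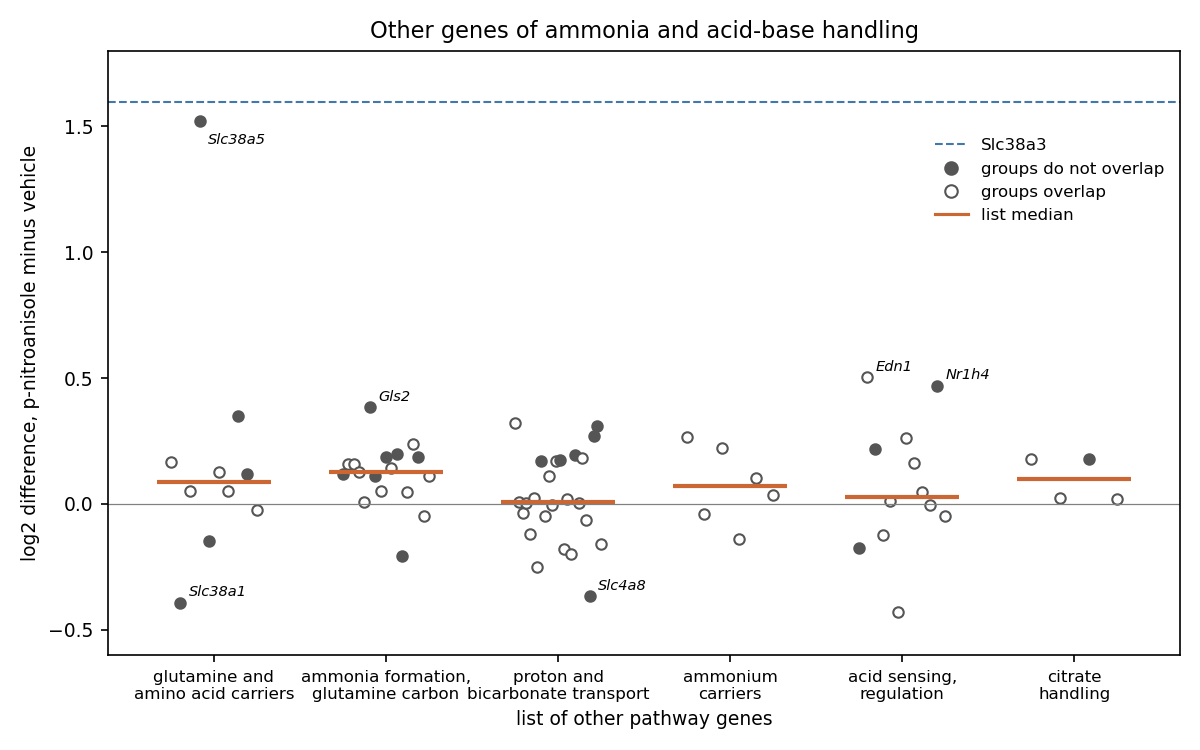
Log2 difference between p-nitroanisole and vehicle (y axis) of the 73 tested pathway genes that are no members, in 6 lists (x axis), filled where the groups do not overlap, with a bar at each list's median and a dashed line at the difference of Slc38a3. Slc38a5 at 1.52 lies near the dashed line, and 71 of the 73 genes lie within 0.5 of 0.

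The named genes whose levels over the 6 arrays were most like those of Slc38a3 were Myl3 (a myosin light chain), Or7d12, Atp6v1d (a proton pump subunit), Nploc4 and Msmo1 (a sterol synthesis enzyme), with Pearson's r of 0.988 to 0.994 across 6 arrays. These values describe arrays that fall into 2 groups, so r mainly follows the group difference, and 372 of 12200 named genes had r above 0.9. The differences of the 5 genes were smaller than that of Slc38a3, from 0.13 for Atp6v1d to 0.93 for Or7d12, which read 0.00944 to 0.0233 and so lay near the background.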

How the data were processed

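RNA from 6 rat renal cortices was measured on 1-colour Cy3 Agilent arrays. The deposited scanner files hold spot intensity values from Agilent Feature Extraction 10.7.1.1 with the background subtracted and no scaling between arrays, per the file headers (version 10.7 per the submitters' processing notes). The authors' deposited series matrix holds a linear signal that equals these intensities divided by 1 constant per array (within 0.0049% where the signal was above 1), with column medians of 0.105 to 0.111 and no centring per gene. Direction does not apply to 1 colour.

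Control spots and outlier spots (0 to 4 per array) were left out. Values are log2 of the processed intensity, floored at 1, minus the array's 75th percentile. Probes were tested if well above background on all 3 arrays of a group (41219 probes). Accessions were matched to RefSeq's GRCr8 gene table, which named 28193 of 61537 probes (45.8%). The array design's build differs (rn4, per the file headers), so coordinates are given only for RefSeq's windows. The brightest tested probe stood for each named gene, giving 12201 named genes and 20002 unnamed probes. The test was limma's moderated one (version 3.58.1, under R 4.3.3, lmFit and eBayes, two-sided, Benjamini-Hochberg over all rows, threshold 0.05). Other probes of a gene come from the fit with every probe as a row. The code was tested on simulated data. The number of arrays limits the precision.

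Members and lists were chosen with earlier results of these data known. The text names all members, in each list the called genes or else the 2 with the largest differences, and the 5 genes most like Slc38a3. Any other gene was chosen after its values were seen. List genes, 1 of them under this rule, can be counted but not reported here by name. Alternatives were other scalings, the series matrix, normexp, other filters, every probe as a row, a trended robust variance, slide and replicate blocks, and leaving out each array. The slide block and leaving out treated replicate 3 are the same fit, counted as 2 alternatives.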

Additional observations from a re-analysis of the deposited data

How the results depend on the processing

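Under all 16 alternatives none of the 8 members other than Slc38a3 was called, the smallest adjusted p being 0.0518 for Slc4a4 with a trended robust variance (0.113 to 0.379 in the others). The log2 difference of Slc38a3 ran from 1.42 without treated replicate 2 to 1.72 without treated replicate 3, and that of Slc4a4 from 0.28 to 0.38. The number of rows called, 24, was 85 with normexp, 2 with no filter on dim probes, 316 with a trended robust variance, 9 with the slide as a block and 1 with the replicate block. It was 0 to 9 when 1 array was left out (0 without vehicle replicate 2 or treated replicate 1, with 3261 and 3722 under an unadjusted p of 0.05 in limma). Called pathway genes, 0 in the report, were 1 with normexp (Slc38a5) and 2 with a trended robust variance (Slc38a5 and Nr1h4).

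Members near 0 changed sign. With quantile normalization Glul and Pck1 were at -0.0284 and -0.0514. With median scaling Slc7a7 and Glul were at -0.00834 and -0.0449. Glud1 was at 0.00541 with normexp. With the slide as a block, and equally without treated replicate 3, Glul was at -0.0923. Leaving out vehicle replicate 1 put Glud1 at 0.00629 and Rhcg at -0.0105, leaving out vehicle replicate 2 put Glul at -0.0736, and leaving out vehicle replicate 3 put Slc7a7 at -0.00719. Leaving out treated replicate 1 put Glud1 at 0.038, and leaving out treated replicate 2 put Slc7a7 at -0.0062. Over the fits without 1 array the highest values were 0.0876 for Slc7a7, 0.0877 for Glul and 0.293 for Rhcg, and the lowest for Glud1 was -0.0647. The cause was not tested, and all of the values that changed sign lie within 1 SE of 0.

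Same-numbered arrays did not deviate together (r of -0.00876, 0.0397 and -0.0102 over rows, and vehicle replicate 1 correlated best with treated replicate 3). Over all rows the numbers thus show no pairing of the animals, which does not exclude a pairing that acts on fewer genes. With the replicate block the SE of Slc38a3 was 0.137 against 0.192, and that of Slc38a5 was 0.178 against 0.157. The replicate block left 1 row called, and Slc4a4 at an adjusted p of 0.351. Normexp was run on the median signal, an alternative chosen after seeing the data, because the planned mean signal column was absent from the scanner output read here.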
